A study of Mus musculus with 8 samples.

Results

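Peptide hormones of the islet are made as prohormones that are cut, trimmed and stored in dense-core secretory granules before release. The genes described here encode the 10 proteins of that route with the best known roles: the convertases Pcsk1 and Pcsk2, which cut prohormones at pairs of basic residues, the carboxypeptidase Cpe, which removes the basic residues left behind, Scg5 (7B2), the chaperone of PCSK2, Pcsk1n (proSAAS), whose product inhibits PCSK1, and the granins Chga, Chgb, Scg2, Scg3 and Vgf, acidic proteins that are packed into granules. They were taken by name and function and are 10 of the 19945 genes in the table. In β cells both convertases act on proinsulin, whereas in α cells PCSK2 releases glucagon from proglucagon, and δ cells use convertases to mature somatostatin.

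The study asked what a course of PF562271, an oral inhibitor of focal adhesion kinase (FAKi), does to mouse pancreatic cells. Wild-type C57BL/6 mice received vehicle or FAKi at 50 mg/kg by oral gavage, 2 doses daily over 3 weeks, and their islets were isolated and handpicked 10 days after dosing ended. Islets of 5 mice were pooled into 1 droplet library per condition, so that each condition is a single sample with 4 sequencing lanes and no biological replicate. The vehicle library held 3776 cells and the FAKi library 3183 cells, with medians of 10102 and 13688 unique molecular identifiers (UMIs, tags that count captured RNA molecules) per cell. Because handpicked islets bring exocrine and stromal cells along, the table also holds acinar, ductal, endothelial, mesenchymal and immune classes.

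Levels are given as UMIs per 1000000 UMIs of a cell class (CPM), summed over its cells within a library. A ratio of 2 CPM values carries an exact 95% interval that covers counting error only. The spread between mice is unknown here, no p-value is given, and a gene is called past the limit when its ratio is at least 1.5-fold either way and it has at least 100 UMIs in the 2 groups together. The deposited classes were checked against their markers. β cells held 394857 and 404454 CPM of Ins2 in the vehicle and FAKi libraries. Within the α class, cluster 5 was rich in Gcg (264490 and 295121 CPM), while cluster 9 also held Sst (58406 and 45730 CPM) and acinar transcripts. The class deposited as δ cells joined cluster 6, rich in Sst (213487 and 219821 CPM), and cluster 8, which was led by Ppy (278292 and 263888 CPM) and held only 6909 and 7524 CPM of Sst. Those 2 clusters are therefore described apart. Between the libraries 4 cell barcodes were shared.

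The genes lie on 8 chromosomes of the mouse genome (build mm10). Pcsk1 is at chr13:75089826-75134861 on the plus strand and Pcsk2 at chr2:143546156-143816285 on the plus strand. Chgb (chr2:132781278-132795079) and Scg5 (chr2:113776362-113829121) share its chromosome. Cpe lies at chr8:64592542-64693054, Chga at chr12:102554969-102565028, Scg2 at chr1:79434669-79440120, Scg3 at chr9:75643189-75684056, Pcsk1n at chrX:7919822-7924410 and Vgf at chr5:137026392-137033351. All 10 genes encode proteins.

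Promoter windows from RefSeq (build GRCm38.p6), 250 bases before to 50 bases after the annotated start, were at hand for 8 of the 10 genes, those of Cpe and Vgf not among them. Shown are those of both convertases and of the granins Chgb and Scg2, whose levels across cell types are described in the results that follow. They are read 5′ to 3′ along the gene, and capitals mark TGACGTCA, the cyclic AMP response element, or its shorter form TGACGT, on either strand. The windows are chr13:75089607-75089906 (plus strand) for Pcsk1, chr2:143545883-143546182 (plus strand) for Pcsk2, chr2:132781392-132781691 (plus strand) for Chgb and chr1:79439977-79440276 (minus strand) for Scg2.
Pcsk1: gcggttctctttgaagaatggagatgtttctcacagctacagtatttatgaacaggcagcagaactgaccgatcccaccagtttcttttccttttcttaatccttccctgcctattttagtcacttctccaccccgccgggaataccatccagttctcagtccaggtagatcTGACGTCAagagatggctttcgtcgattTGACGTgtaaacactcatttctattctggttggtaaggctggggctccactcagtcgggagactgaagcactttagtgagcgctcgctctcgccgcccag
Pcsk2: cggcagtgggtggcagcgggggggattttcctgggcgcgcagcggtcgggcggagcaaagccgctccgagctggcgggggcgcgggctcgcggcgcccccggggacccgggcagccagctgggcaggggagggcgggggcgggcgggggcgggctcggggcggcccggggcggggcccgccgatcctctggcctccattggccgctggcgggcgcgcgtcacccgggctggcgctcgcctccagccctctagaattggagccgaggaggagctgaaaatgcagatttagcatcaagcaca
Chgb: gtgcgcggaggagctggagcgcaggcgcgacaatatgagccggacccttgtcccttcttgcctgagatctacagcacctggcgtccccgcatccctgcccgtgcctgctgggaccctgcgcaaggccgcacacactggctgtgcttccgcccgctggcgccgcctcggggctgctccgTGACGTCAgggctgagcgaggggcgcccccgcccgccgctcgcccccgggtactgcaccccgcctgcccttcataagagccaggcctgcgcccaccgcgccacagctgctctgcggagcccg
Scg2: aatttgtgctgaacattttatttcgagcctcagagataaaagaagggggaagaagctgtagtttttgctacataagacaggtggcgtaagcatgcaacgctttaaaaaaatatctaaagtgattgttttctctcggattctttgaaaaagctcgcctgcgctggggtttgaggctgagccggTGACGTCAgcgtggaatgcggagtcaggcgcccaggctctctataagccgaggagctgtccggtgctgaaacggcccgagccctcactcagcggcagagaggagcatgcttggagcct
The 8-base element began 78 bases before the start in Pcsk1, 72 bases in Chgb and 68 bases in Scg2. It was found in those 3 of the 8 windows and in 1.79% of 32851 mouse promoter windows of the same length. The 6-base form, which the longer element contains, was found in 5 of the 8 windows, those of Chga and Scg5 included, and in 7.51% of all windows. Neither was found in Pcsk2, whose window was 76.3% G and C against 49.3% in Pcsk1. These matches describe letters in a window and were not tested for binding.

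In β-cell cluster 0, the largest β-cell cluster with 650 vehicle and 675 FAKi cells, 9 of them ranged from 268 CPM (Pcsk1) to 4558 CPM (Chga) in the vehicle library and from 241 to 4445 CPM in the FAKi library. Vgf, the granin known from neurons, had 6.71 and 5.70 CPM. In cells classed as endothelial cells, macrophages or B cells, which do not store peptide hormones, the same 9 genes lay between 29.7 and 529 CPM in the vehicle library and between 39.3 and 743 CPM in the FAKi library. Over 10% of the UMIs were Ins2 in 13 of 543 endothelial cells and 10 of 129 macrophages of the vehicle library and in 7 of 269 and 5 of 55 of the FAKi library, and the part of free RNA and of such droplets in those levels was not tested. UMIs count 3′ ends and do not grow with transcript length, but capture differs between genes, so the order of these levels is not an order of transcript abundance.

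**Figure D1:**
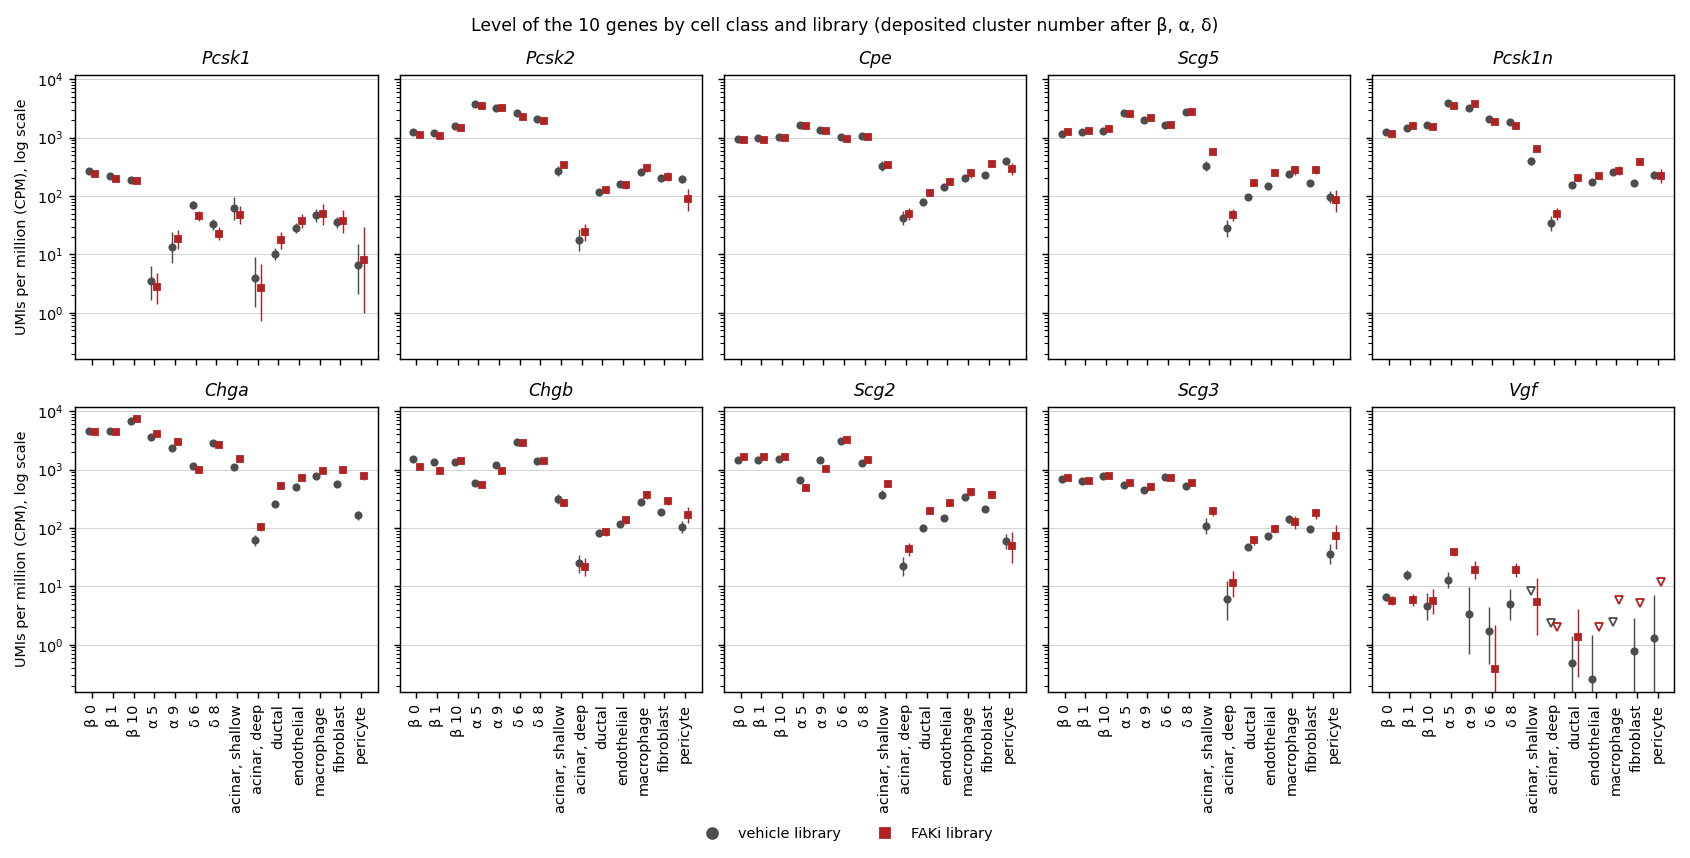
Each panel plots the CPM of 1 gene on a log axis in 14 cell classes, grey circles for the vehicle library and red squares for the FAKi library. Bars are 95% Poisson intervals, and open triangles stand at the level of 3 UMIs where a class held none. Pcsk1 is high only in the β-cell clusters (181 to 268 CPM) among the endocrine clusters, while Pcsk2 stands above 1000 CPM in every endocrine cluster.

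Of the convertases, Pcsk1 separated the endocrine types most. In β-cell cluster 0 it stood at 268 CPM (95% interval 261 to 275) in the vehicle library and 241 CPM (235 to 247) in the FAKi library. In Sst-rich cluster 6 the values were 69.4 and 45.8 CPM, and in Ppy-rich cluster 8 they were 32.6 and 22.8 CPM. In α-cell cluster 5 it was 3.44 CPM (10 UMIs in 186 cells) and 2.75 CPM (12 UMIs in 266 cells). The share of α cells of cluster 5 with a Pcsk1 UMI was 4.84% and 4.14%, at a median of 14453 and 14874 UMIs per cell. That share in endothelial cells, macrophages and B cells was 5.10% and 6.61% at the smaller medians of 5646 and 4879 UMIs, so the α-cell share does not exceed it. In β-cell cluster 0, 98.5% of the cells of both libraries had a Pcsk1 UMI. With every cell thinned to 1000 UMIs the shares were 22.3% and 21.2% in β-cell cluster 0, 7.45% and 2.05% in cluster 6, and 0.538% and 0.376% in α-cell cluster 5, against 0.264% and 1.62% in endothelial cells, macrophages and B cells.

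On the CPM scale Pcsk2, the convertase of both insulin and glucagon cells, stood lower in the β-cell clusters than in the other endocrine clusters. It stood at 1226 and 1089 CPM in β-cell cluster 0, 3707 and 3482 CPM in α-cell cluster 5, 2617 and 2290 CPM in cluster 6, and 2090 and 1937 CPM in cluster 8. The median gene was itself 1.82 and 1.81 times higher in cluster 6 than in β cells, so this order is one of CPM only. The number of Pcsk2 UMIs per Pcsk1 UMI, a ratio that does not depend on the total of a cell, was 5.02 (4.91 to 5.14) in vehicle β cells and 5.01 (4.89 to 5.13) in FAKi β cells. It was 37.7 and 49.98 in cluster 6, 64.1 and 85.1 in cluster 8, and 1078 and 1267 in α-cell cluster 5, where the few Pcsk1 UMIs leave wide intervals (586 to 2249 and 725 to 2452). The β-cell intervals overlap almost wholly, while those of cluster 6 (32.2 to 44.4 and 41.7 to 60.4) overlap only at their ends. For the deposited δ class as a whole the ratio was 46.3 (40.7 to 52.9) and 62.6 (54.2 to 72.8), and these counting intervals do not overlap.

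A comparison of α with β cells rests on how the total is shared out. The hormone genes Ins1, Ins2, Iapp, Gcg, Sst, Ppy and Pyy took 59.3% and 60.5% of the UMIs of β cells but 34.3% and 32.2% of those of α cells, and the median gene was 1.47 and 1.56 times higher in α than in β cells on the CPM scale. Ratios are therefore given on the CPM scale and divided by that median. On the CPM scale 4 of the 10 genes were past 1.5-fold higher and 3 lower in α than in β cells of the vehicle library, where 56.2% of 10220 genes were past it either way (48.1% higher and 8.05% lower). In the FAKi library 5 were higher and 3 lower, where 61.2% of 10528 genes were past it (54.4% higher and 6.8% lower). After division by the median, the counts were 2 higher and 5 lower in the vehicle library and 3 higher and 5 lower in the FAKi library. The share of all genes past the limit after that division was not computed, so these 2 pairs of counts have no background. The classes were drawn from the expression of the same cells, so these counts describe the cell types and test nothing.

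Of the processing genes, Pcsk2 and Pcsk1n were past 1.5-fold higher in α cells on both scales. Pcsk2 was 2.87 and 3.04 times the β-cell CPM, or 1.95 and 1.95 times after division by the median. Pcsk1n stood at 1317 and 1303 CPM in β cells and 3744 and 3564 CPM in α cells, 1.93 and 1.75 times after division. Its own target Pcsk1 was at a few CPM in α-cell cluster 5. Scg5 reached 2.05 and 1.89 times on the CPM scale and 1.39 and 1.21 times after division. Cpe was 1.61 and 1.63 times higher on the CPM scale but 1.09 and 1.04 times after division, and 0.988 and 0.936 times when the 20 genes with most UMIs were left out of the totals, so that its direction depends on the scaling.

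Of the granins, 4 stood lower in α than in β cells after division by the median. Chga, the most widely used granule marker, stood at 0.477 and 0.510 of the β-cell level, Chgb at 0.342 and 0.392, Scg2 at 0.397 and 0.243, and Scg3, which anchors granins to the granule membrane, at 0.514 and 0.506. On the CPM scale Chga (0.703 and 0.798) and Scg3 (0.757 and 0.790) did not pass the 1.5-fold limit. Vgf was 1.28 times the β-cell CPM in the vehicle and 5.75 times in the FAKi library. After division it was 0.869 and 3.68 times, so in the vehicle library its direction depends on the scaling. Cluster 5 alone gave 0.402 and 0.507 for Chgb and 0.461 and 0.296 for Scg2 on the CPM scale. In cluster 9, where the markers of δ and acinar cells were also high, Chgb was 0.838 and 0.890 and Scg2 0.993 and 0.604, so that Chgb was not past the limit there in either library. The part of those other transcripts in the values of cluster 9 was not tested.

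Cluster 6, the Sst-rich cells, had a granin make-up of its own. Chgb stood at 2970 and 2859 CPM there against 1462 and 1081 CPM in all β cells, and Scg2 at 3148 and 3267 CPM against 1469 and 1666 CPM. Chga was lower, at 1162 and 976 CPM against 4786 and 4682 CPM. Set against each other within a cell class, there were 2.56 (2.44 to 2.67) and 2.93 (2.80 to 3.06) Chgb UMIs per Chga UMI in cluster 6, 0.305 and 0.231 in β cells, 0.160 and 0.136 in α-cell cluster 5, and 0.502 and 0.532 in cluster 8. Cluster 8 held 7 of 140 and 6 of 163 cells with over 10% Ins2, whose part in its values was not tested. Scg2 per Chga UMI followed with 2.71 and 3.35 in cluster 6, 0.307 and 0.356 in β cells and 0.184 and 0.122 in α-cell cluster 5. After division by the median gene (1.82 and 1.81 times higher in cluster 6 than in β cells), Chga was 0.133 and 0.115 of the β-cell level, while Chgb was 1.12 and 1.46 and Scg2 was 1.18 and 1.08.

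In Ppy-rich cluster 8, which also held 57931 and 57085 CPM of Gcg, Scg5 stood at 2725 and 2722 CPM against 1204 and 1295 CPM in β cells. Scg5 UMIs per Pcsk2 UMI, the chaperone per convertase, were 1.30 and 1.41 in cluster 8, 0.617 and 0.722 in cluster 6, 0.707 and 0.730 in α-cell cluster 5, and 0.960 and 1.16 in β cells. For the deposited δ class as a whole, 3 genes were past 1.5-fold higher and 3 lower than in β cells of the vehicle library, where 57.4% of 10346 genes were past it (51.1% higher and 6.24% lower). In the FAKi library 4 were higher and 2 lower, where 55.7% of 10516 genes were past it (50% higher and 5.71% lower). After division by the median gene (1.51 in the vehicle library), no gene was past it on the higher side, and 4 and 3 were on the lower side. Here too the share of all genes after division was not computed. Pcsk1, Chga and Scg3 (0.613 in both libraries) were on the lower side in both, and Vgf (0.268) in the vehicle library only, where it rests on few UMIs. Scg2 in the vehicle library went from 1.51 to 1.00 with that division, and was 2.14 in cluster 6 and 0.898 in cluster 8, so its value for the whole class is a mixture.

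**Figure D2:**
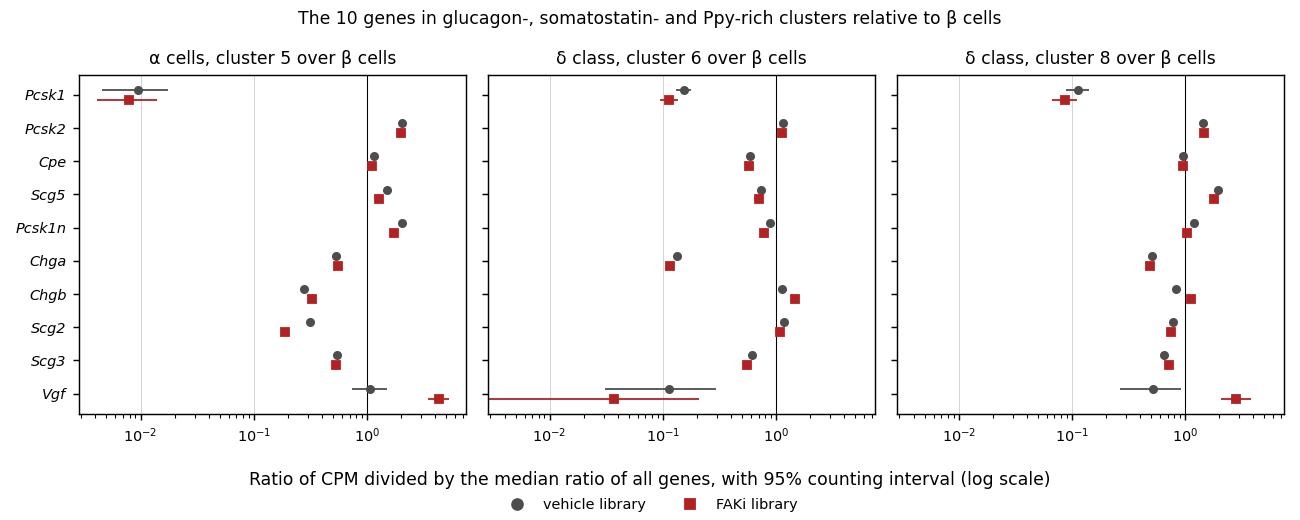
Each panel plots, on a log axis, the CPM of a cluster over that of β cells of the same library, divided by the median ratio of all genes, with 95% counting intervals, grey circles for vehicle and red squares for FAKi. Pcsk1 lies at 0.00945 and 0.00794 in α-cell cluster 5, Chga at 0.133 and 0.115 in cluster 6, and Scg5 at 1.95 and 1.79 in cluster 8. The FAKi interval of Vgf in cluster 6 rests on 1 UMI and runs off the axis.

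Of 41 listed genes of processing, granule membrane and granule cargo, 40 were in the table. Compared with β cells of the vehicle library, 13 of 36 measured genes were past 1.5-fold higher and 9 lower in α cells, and 15 of 36 higher and 5 lower in the δ class. Of all genes, 56.2% and 57.4% were past the limit either way in those comparisons. Their median ratios of 1.32 and 1.38 lay below those of all genes. Pam, which amidates peptides, was highest in α cells at 4.63 and 4.33 times the β-cell CPM, followed in the vehicle library by Stx1a, a syntaxin of the plasma membrane (3.96 and 3.61), and Resp18 (3.96 and 3.37). In the δ class of the vehicle library Nnat (5.43), Resp18 (4.21) and Pam (4.01) led. Its clusters gave different counts there, 16 of 36 higher and 6 lower in cluster 6 (where 68.0% of all genes were higher and 5.66% lower), and 10 higher and 9 lower in cluster 8 (25.2% and 13.4%). Lowest were Sytl4 (granuphilin, which docks granules) at 0.0121 and 0.0115 in α cells, Npy at 0.0200 and 0.0171, and Ero1lb, an oxidase of insulin folding, at 0.0730 and 0.0968. Of the substrates, Gcg was 207 and 194 times higher in α cells and Ins2 was 0.00728 and 0.00988 times the β-cell level.

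Between libraries, β-cell cluster 0 gave ratios near 1 for most of the genes. None of the 10 was past 1.5-fold (0 of 10), where 4.56% of 10300 genes were. The ratios of FAKi to vehicle ran from 0.726 to 1.15 with a median of 0.948, and the median of all genes was 0.971. Chgb was lowest, at 1523 CPM (1507 to 1539) in the vehicle and 1105 CPM (1092 to 1118) in the FAKi library, a ratio of 0.726 (0.714 to 0.737). Of the 10300 genes, 5.88% had a ratio as low or lower, and of the 3558 genes with at least 1000 UMIs, 2.59% did. Chgb was picked as the lowest of the 10, so this placing describes it and tests nothing. Scg2 was highest, at 1462 and 1677 CPM, a ratio of 1.15 (1.13 to 1.16), with 12.9% of genes as high or higher, and 10.2% of those with at least 1000 UMIs. The convertases stood at 0.899 (Pcsk1) and 0.889 (Pcsk2), Cpe at 0.953, Pcsk1n at 0.943 and Chga at 0.975, while Scg5 was 1.08 and Scg3 1.06. Since Scg5 and Pcsk2 lay on opposite sides of 1, Scg5 UMIs per Pcsk2 UMI were 0.957 (0.941 to 0.974) and 1.17 (1.15 to 1.19). Many of these intervals leave out 1 because the counts are large, which says nothing of the spread between mice.

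In β-cell cluster 1 (305 and 546 cells) Chgb stood at 1328 and 942 CPM, a ratio of 0.709 (0.690 to 0.729), Scg2 at 1.13, Pcsk1 at 0.881 and Pcsk2 at 0.908. Pcsk1n was 1.08 (1.06 to 1.11) there, on the other side of 1 from its ratio of 0.943 (0.927 to 0.959) in cluster 0. The gene past 1.5-fold was Vgf (1 of 10, where 4.47% of 8030 genes were past it), at 15.7 CPM from 113 UMIs in the vehicle and 5.89 CPM from 64 UMIs in the FAKi library, a ratio of 0.376 (0.273 to 0.516). A Vgf UMI was found in 19.3% of vehicle and 8.24% of FAKi cells of the cluster, at medians of 20070 and 16908 UMIs. Cluster 1 also held 5789 and 5358 CPM of 8 summed acinar markers, against 111 and 224 CPM in cluster 0. Ppy and Pyy summed to 496 and 145 CPM in cluster 1, and 5 α-cell markers to 459 and 1369 CPM. Vgf itself had 0 and 4 UMIs in the shallow acinar class and 0 and 0 in the deep one. The part of those transcripts and of free RNA in the Vgf values was not tested.

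β-cell cluster 10 (121 and 115 cells) gave another value for Chgb. Chgb was 1337 and 1380 CPM there, a ratio of 1.03 (0.989 to 1.08), whose interval lies above those of clusters 0 and 1. None of the 9 genes with enough UMIs was past 1.5-fold, where 4.35% of 5314 genes were. The ratios ran from 0.917 (Pcsk2) to 1.09 (Scg5). A difference in response between the clusters was not tested, since each rests on the same 2 libraries.

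**Figure D3:**
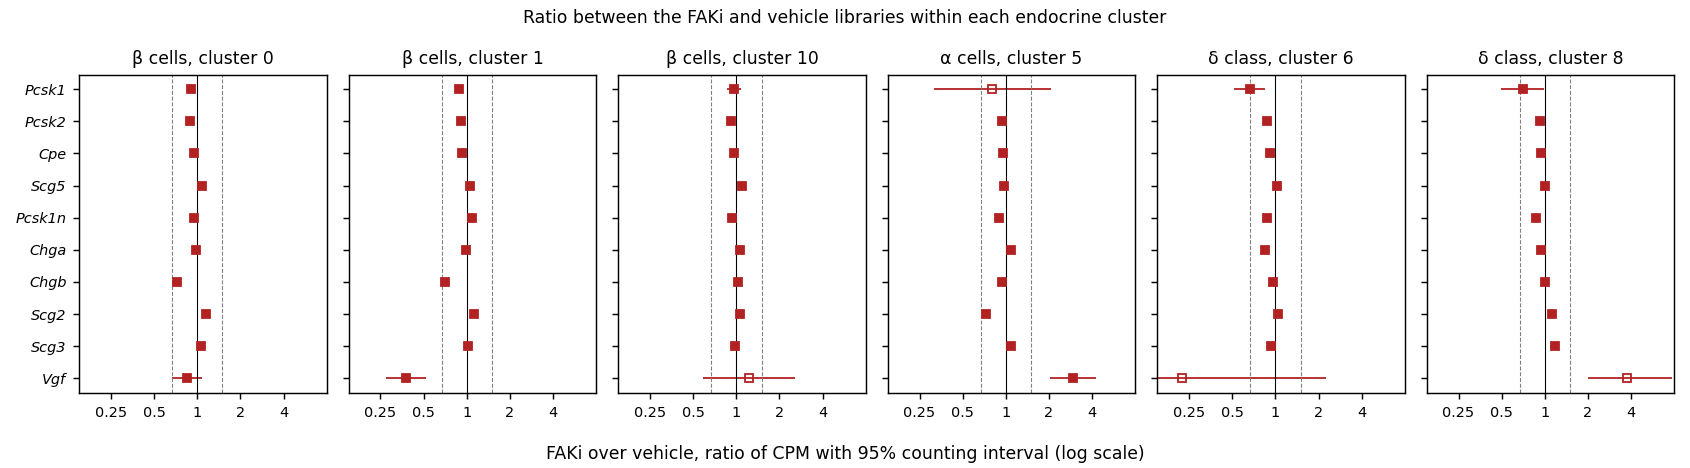
Each panel plots the FAKi over vehicle ratio of CPM of the 10 genes in 1 endocrine cluster on a log axis, with 95% counting intervals and dashed lines at 1.5-fold. Filled squares have at least 100 UMIs and open squares fewer. Chgb lies at 0.726, 0.709 and 1.03 in β-cell clusters 0, 1 and 10, Scg2 at 0.727 in α-cell cluster 5, and Vgf at 0.376 in β-cell cluster 1 against 2.93 in α-cell cluster 5, while the Vgf interval of cluster 6 runs off the axis.

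In α cells (273 vehicle and 434 FAKi cells) 1 of 9 genes with enough UMIs was past 1.5-fold, where 4.76% of 7808 genes were. This was Vgf, at 10.8 CPM from 41 UMIs in the vehicle and 33.1 CPM from 199 UMIs in the FAKi library, a ratio of 3.06 (2.18 to 4.40). Of those genes, 0.0897% had a ratio as high or higher, a placing of the 1 gene called and no test. In cluster 5 alone the levels were 13.1 and 38.3 CPM, and a Vgf UMI was found in 23 of 186 cells (12.4%) and 71 of 266 cells (26.7%) at near equal depth. No Vgf share of non-endocrine cells is set beside these, so the part of free RNA in them was not tested. The cell with most Vgf UMIs held 13.2% and 5.99% of them, and without that cell in each library the ratio for all α cells was 3.31. With cells under 5% mitochondrial counts the gene fell under 100 UMIs and was not called.

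The granins differed in direction in α cells. Scg2 was 860 and 633 CPM, a ratio of 0.737 (0.703 to 0.772), and cluster 5 (0.727) and cluster 9 (0.690) gave like values, so its direction was opposite to that in β-cell clusters 0 and 1. Chga was 3364 and 3734 CPM, a ratio of 1.11 (1.09 to 1.13), and Chgb 0.899. In the class as a whole Pcsk2, Cpe, Scg5 and Pcsk1n lay between 0.944 (Pcsk2) and 0.991 (Scg5), but its clusters differed for Pcsk1n, at 0.896 (0.874 to 0.918) in cluster 5 and 1.16 (1.11 to 1.21) in cluster 9, and for Scg5, at 0.971 and 1.11. Over the same cells Ppy was 0.361 and Pyy 0.447 times the vehicle level, values that moved with the library within the class, and their part in the Vgf and Scg2 values was not tested.

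In the δ class 1 of 9 genes with enough UMIs was past 1.5-fold, where 3.88% of 7973 genes were. This was Pcsk1, at 50.8 CPM from 237 UMIs and 33.6 CPM from 186 UMIs, a ratio of 0.661 (0.543 to 0.805). In cluster 6 the ratio was 0.660 (0.516 to 0.842) and in cluster 8 it was 0.699 (0.496 to 0.982). A Pcsk1 UMI was found in 94 of 188 and 74 of 195 cells of cluster 6, at medians of 12520 and 12747 UMIs. The value lies close to the limit, and the call was lost without the 20 genes with most UMIs (0.674), without called doublets (0.669), with cells of at least 1000 detected genes (0.667), without cells over 10% Ins2 (0.699) and after division by the median gene (0.684). Ins2 transcripts, which come with Pcsk1 in β cells, stood at 13870 and 6675 CPM in cluster 8 and at 2024 and 3101 CPM in cluster 6. Their part in the Pcsk1 value of either cluster was not tested. Subtracting the mean UMIs per droplet of endothelial cells, macrophages and B cells gave 0.444. Pcsk1n was 0.873 and Pcsk2 0.895 in the same class, while Scg5 was 1.02 and Scg2 1.04.

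Of the other genes of the route, 2 of 36 measured were past 1.5-fold between libraries in β-cell cluster 0 and none of 28 in α cells, beside 4.56% and 4.76% of all genes. Nnat, an imprinted gene that aids signal peptide processing of proinsulin, was higher in FAKi β cells at 2.68 times in cluster 0, 2.55 in cluster 1 and 3.90 in cluster 10. The other gene past the limit in cluster 0 was Cadps2, which primes granules, at 0.611. Npy was 2.04 times higher in cluster 1, and Ero1lb was 0.656 in the δ class.

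Among β cells of 1 library, the clusters differed in the balance of the convertases. Pcsk1 was lower in cluster 1 than in cluster 0 (0.822 and 0.805 times) and lower again in cluster 10 (0.704 and 0.752 times), while Pcsk2 was 0.969 and 0.990 in cluster 1 and 1.29 and 1.33 in cluster 10. Pcsk2 UMIs per Pcsk1 UMI were accordingly 4.57 and 4.52 in cluster 0, 5.39 and 5.56 in cluster 1, and 8.36 (7.71 to 9.09) and 7.99 (7.32 to 8.73) in cluster 10. Both libraries gave the same order. Pcsk1n was 1.18 and 1.35 times higher in cluster 1 and 1.32 and 1.31 times higher in cluster 10.

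Past 1.5-fold in cluster 1 over cluster 0 was 1 of the 10 genes in the vehicle library (Vgf, at a ratio of 2.33), where 4.58% of 9490 genes were past it, and none in the FAKi library, where 3.54% of 9685 were. Vgf was 1.03 there. In cluster 10 over cluster 0 it was none in the vehicle library, where 13.6% of 9312 genes were past it, and 1 in the FAKi library, where 15.8% of 9280 were. The gene was Chga, at 4558 CPM in cluster 0 and 6771 CPM in cluster 10 of the vehicle library and at 4445 and 7226 CPM in the FAKi library, with ratios of 1.49 and 1.63. The median gene was 1.14 times higher in cluster 10 in both libraries, and divided by it the Chga ratio was 1.31 and 1.42, so the call does not outlast that scaling. Pcsk1 came past the limit on the lower side with it, at 0.619 and 0.657, as did Vgf in the vehicle library (0.614, from 16 UMIs in cluster 10). Cluster 10 held 7015 to 15096 CPM of each of Gcg, Sst and Ppy, and whether they lay in the same cells was not tested. On the CPM scale Chga was lower in α-cell cluster 5, cluster 6 and cluster 8 than in β cells. Pcsk2 was 2.96 and 3.12, 2.09 and 2.05, and 1.67 and 1.74 times the β-cell CPM there. The median gene was 1.46 and 1.55, 1.82 and 1.81, and 1.16 and 1.18 times higher in the same comparisons. The part of transcripts of those cells in the Chga and Pcsk2 values of cluster 10 was not tested.

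**Figure D4:**
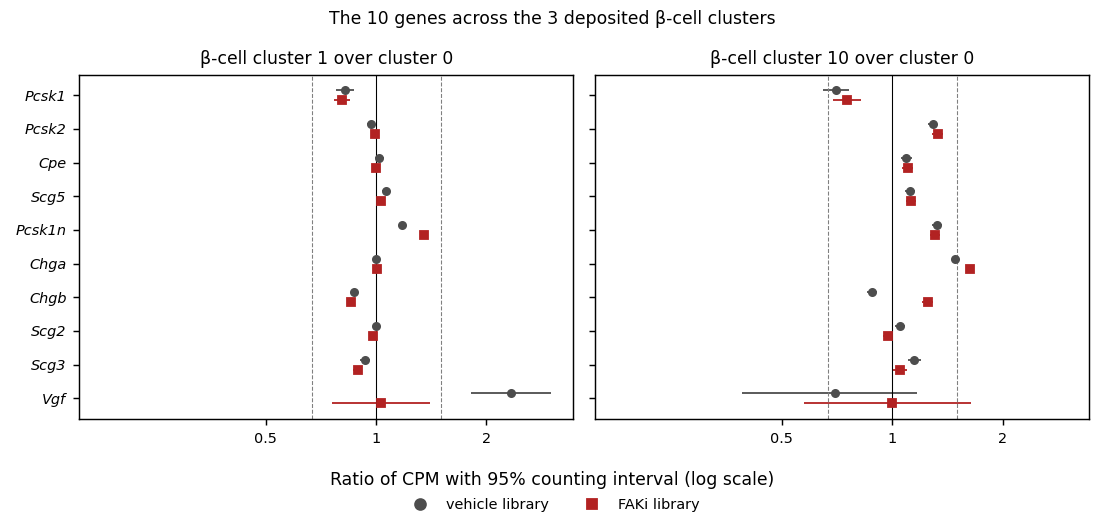
The panels plot the CPM of β-cell cluster 1 (left) and cluster 10 (right) over that of cluster 0 on a log axis, with 95% counting intervals, dashed lines at 1.5-fold, grey circles for vehicle and red squares for FAKi. Pcsk1 lies below 1 in all 4 comparisons (0.704 to 0.822), and Chga lies at 1.49 and 1.63 in cluster 10.

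Of the other genes of the route, 6 of 33 measured were past 1.5-fold higher and 3 lower in cluster 10 than in cluster 0 of the vehicle library, and 4 of 32 higher and 3 lower in the FAKi library, beside 13.6% and 15.8% of all genes either way. Pam (1.98 and 1.72), Furin, a convertase of the trans-Golgi (1.65 and 1.89), and Resp18 (1.75 and 1.76) were among the higher ones in both. Sytl4 (0.495 and 0.443), Npy (0.415 and 0.567) and Ero1lb (0.624 and 0.663) were the lower ones. All 6 lay on the same side of 1 in α cells. In cluster 1 over cluster 0, none of 34 and 33 measured genes was higher, and 1 was lower in each library, Npy at 0.471 in the vehicle library and Ptprn2, a granule membrane protein, at 0.662 in the FAKi library, beside 4.58% and 3.54% of all genes either way.

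Within β-cell cluster 0 the cells were not alike. Over cells with at least 10000 UMIs (640 vehicle and 674 FAKi), the coefficient of variation of Chgb was 66.5% and 67.6%, where counting alone gives 15.5% and 16.9%. The cell at the 10th percentile had 617 and 473 CPM of Chgb and the one at the 90th had 2664 and 2006 CPM. Scg2 varied by 42.9% and 46.0%, Chga by 37.4% and 41.1%, and Scg5 least, by 28.4% and 27.4% against 17.5% and 15.7% from counting. The median cell gave the same picture between libraries as the sum, Chgb being 1153 and 879 CPM and Scg2 1418 and 1595 CPM. Chgb and Scg2 were weakly and inversely related from cell to cell (Pearson r of −0.260 and −0.307 over these cells on the log2 scale), and Chgb and Pcsk1 weakly and directly (0.316 and 0.358). For Chgb and Scg2 the sign was not the same in other endocrine clusters, with 0.385 and 0.111 in α-cell cluster 5, 0.343 and 0.347 in cluster 6, and −0.298 and 0.409 in cluster 8. These are descriptions of cells that share 1 library and its depth. In cluster 6 the coefficient of variation of Chga was 88.8% and 86.7%, where counting gives 25.3% and 27.1%, and in cluster 8 it was 164% and 138%. The median cell of cluster 8 had 1678 and 1755 CPM of Chga. Over 10% of the UMIs were Ins2 in 7 of 140 and 6 of 163 cells of that cluster, and their part in its spread was not tested.

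The acinar class of shallow cells (161 vehicle and 297 FAKi cells, medians of 1480 and 1140 UMIs) also held UMIs of these genes. On the CPM scale 4 of 8 genes with enough UMIs were past 1.5-fold higher in the FAKi library, where 11.6% of 370 genes were past it on that side and 20% either way. They were Scg3 (1.75), Scg5 (1.75), Pcsk1n (1.63) and Scg2 (1.51), while Chga stood at 1128 and 1508 CPM (1.34) and Chgb at 0.869. The count was 2 of 7 in cells with at least 1000 detected genes (Scg5 and Pcsk1n) and 2 of 7 in cells with fewer (Scg5 and Scg2). The share of all genes past the limit in those 2 sets of cells was not computed. Once the mean UMIs per droplet of endothelial cells, macrophages and B cells were subtracted, none of these genes could be compared. Ins2 in the same cells was 103583 and 173097 CPM, a ratio of 1.67, and over 10% of the UMIs were Ins2 in 60 of 161 and 194 of 297 cells.

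Per Ins2 UMI, the 9 genes stood in that class at 0.61 (Scg3) to 1.30 (Cpe) times their proportion in vehicle β cells. In the FAKi library the range was wider on the low side, from 0.499 (0.348 to 0.695) for Pcsk1 and 0.585 (0.507 to 0.673) for Chgb to 1.16 (1.06 to 1.27) for Pcsk1n. In cells under 1000 detected genes Scg5 was 1.59 (1.40 to 1.80) in the FAKi library and Cpe 1.54 (1.22 to 1.91) in the vehicle library. Cells with at least 1000 detected genes, 4 of the vehicle and 13 of the FAKi library, held 40.9% and 60.9% of the Ins2 UMIs of the class and 29.1% and 57.8% of the Chga UMIs. How many of the UMIs of these genes came from the acinar cells themselves was not tested.

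Outside the endocrine classes, Cpe was 392 CPM (301 UMIs) and 290 CPM (72 UMIs, 20.8% of them in 1 cell) in the class deposited as pericytes. Per Ins2 UMI that was 12.0 (10.7 to 13.4) and 6.02 (4.71 to 7.58) times the β-cell proportion, and in fibroblasts it was 2.10 and 1.74 times. Pericytes also held Gcg (6128 and 1124 CPM), and Pcsk1n there was 5.14 and 3.22 times the β-cell proportion. Vehicle B cells, which held 10308 CPM of Gcg, gave 12.5 times for Cpe at only 103 CPM, 13.9 for Pcsk2, 13.5 for Scg5 and 12.8 for Pcsk1n, so the proportion to insulin alone does not set pericytes apart. A Cpe UMI was found in 65.7% and 57.8% of pericytes and in 52.3% and 49.2% of fibroblasts, against 14.5% and 17.7% of endothelial cells, macrophages and B cells. Thinned to 1000 UMIs per cell, the shares were 25.5% and 22.2% in pericytes, 14.1% and 16.1% in fibroblasts, and 5.54% and 5.18% in the other 3 classes. The intervals of pericytes (18.5 to 33.7% and 12.7 to 34.5%) lie above those of the 3 classes in both libraries (4.02 to 7.42% and 2.99 to 8.27%). For Chga the thinned share in pericytes was 5.84% and 17.5%, against 7.92% and 19.1% in the 3 classes.

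**Figure D5:**
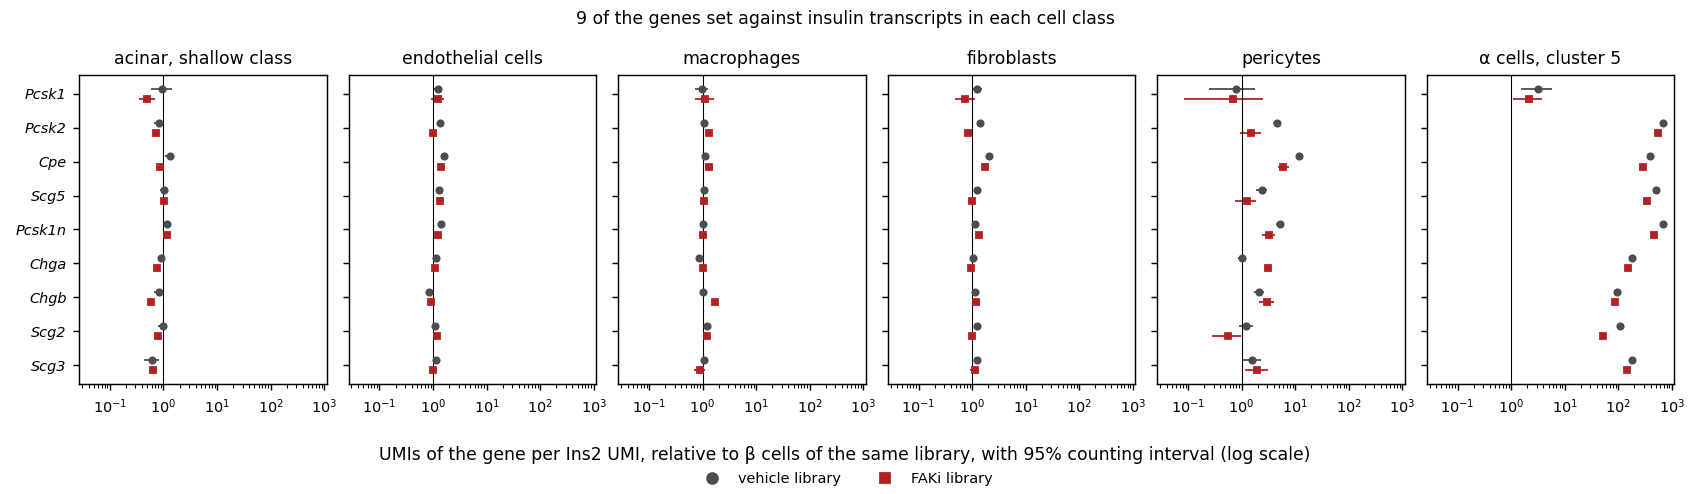
Each panel plots, on a log axis, the UMIs of 9 genes per Ins2 UMI in 1 cell class relative to β cells of the same library, with 95% counting intervals, grey circles for vehicle and red squares for FAKi. In the shallow acinar class the genes lie between 0.61 and 1.30 for vehicle and between 0.499 and 1.16 for FAKi, Cpe lies at 12.0 and 6.02 in pericytes, and in α-cell cluster 5 all but Pcsk1 lie above 50.

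Across 12 deposited classes and both libraries (24 points that share 2 libraries), the gene whose log2(CPM + 1) most resembled each of these genes was looked for among 14092 genes. Pcsk1 was most like Iapp (Pearson r of 0.916), a β-cell hormone and one of its substrates. Pcsk2 was most like Kcnk16 (0.973), a potassium channel of islet cells, Pcsk1n like Scgn (0.987), a calcium sensor of endocrine cells, and Cpe like Pcsk1n (0.967). Scg5 was most like Pax6 (0.971), the transcription factor of all islet cells, and Scg3 like Syt13 (0.984). Chgb (0.935) and Scg2 (0.970) were both most like Insm1, a zinc-finger factor of endocrine cells, Chga was most like Slc2a5 (0.965) and Vgf like Gm38393 (0.890). These likenesses rank patterns over cell types and say nothing of shared control.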

How the data were processed

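Single cells of handpicked mouse islets were measured by droplet RNA sequencing (10x 3′ v3.1 chemistry). The deposited table holds raw UMI counts per gene and cell, which the authors made with Cell Ranger on mm10 and filtered in Seurat 3.1 (cells over 8% mitochondrial counts removed). A deposited cell table gives the percent of mitochondrial counts, the treatment, the cluster and the cell type of each cell, as the authors computed and named them. Its label "Control" was read as vehicle. The 4 lanes of a library are not separated, so each condition is 1 library.

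Here UMIs were summed per cell class and library and expressed as CPM. Intervals are exact (Poisson for levels, conditional binomial for ratios, Clopper-Pearson for shares), at 95%, and cover counting error only. A gene counted as past the limit at 1.5-fold either way with at least 100 UMIs in both groups together. No test or p-value is given, since 1 library per condition leaves no replicate. Shares of cells were also computed after thinning to 1000 UMIs per cell. The intervals were tried on simulated Poisson counts, which hold counting error only. That trial says nothing of the spread between cells or mice. Doublets were called with Scrublet in scanpy 1.11.5 (68 of 3776 vehicle and 57 of 3183 FAKi cells) and left out in an alternative. Exact intervals were computed with scipy 1.17.1, and sums with pandas 2.3.3 under Python 3.11.15.

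The 10 genes, the related genes, the markers and the promoter motif were chosen with earlier results of these data known. All 10 genes are named. Of the related genes, at most the 3 highest and 3 lowest past the limit in a comparison are named, with their values elsewhere. For each of the 10, the gene with the highest Pearson correlation over classes is named. Gene positions come from GENCODE vM21 and promoter windows from RefSeq GRCm38.p6.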

Additional observations from a re-analysis of the deposited data

Results flagged for a closer look

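Over the 3 β-cell clusters and the α, δ and shallow acinar classes, 3 of the genes described had FAKi over vehicle ratios whose counting intervals lay past 1.1-fold on opposite sides in different ones of these. None of these differences was tested, since each rests on the same 2 libraries.

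Vgf was 3.06 (2.18 to 4.40) in α cells and 0.376 (0.273 to 0.516) in β-cell cluster 1. Scg2 was 1.15 (1.13 to 1.16) in β-cell cluster 0, 1.13 in β-cell cluster 1 and 1.51 (1.24 to 1.86) in the shallow acinar class, but 0.737 (0.703 to 0.772) in α cells. Pcsk1n was 1.63 (1.35 to 1.99) in the shallow acinar class and 0.873 (0.849 to 0.899) in the δ class. Split by cluster, Chga too lay on both sides, at 0.840 (0.795 to 0.887) in cluster 6 and 1.28 (1.21 to 1.35) in α-cell cluster 9, beside 1.34 in the shallow acinar class. In the acinar class the values stand beside Ins2 at 1.67 times and Gcg at 3.34 times the vehicle level.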

How the results depend on the processing

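No test was made, no paired analysis was possible and no replicate could be left out, since each condition is 1 library. Its 4 sequencing lanes, which the deposited table does not separate, are not replicates. Between libraries, the count of genes past 1.5-fold in β-cell clusters 0, 1 and 10 stayed within 1.5 times of its value under every alternative run. In α cells (1) it became 0 with cells under 5% mitochondrial counts and in cluster 9 alone, where Vgf was under 100 UMIs (5.73, 1.79 to 29.2, from 3 and 32 UMIs in cluster 9), and 2 after background subtraction. In the δ class (1) it became 0 at 2-fold, without the 20 most abundant genes, after scaling by the median gene, without doublets, with cells of at least 1000 genes, in cluster 8 alone and without insulin-rich cells, and 2 with genes of at least 1 UMI. In the shallow acinar class (4) it became 0 at 2-fold and after background subtraction, and 2 in cells with at least, and in cells with under, 1000 genes. The subtraction used deeper classes (medians of 5646 and 4879 UMIs against 1480 and 1140) that hold insulin-rich droplets, so that 0 says nothing of stability. For β-cell cluster 10 over 0, the vehicle count (0) became 1 with the mean over cells, after background subtraction and without the top cell, and 2 without the 20 genes, after median scaling and without doublets, and the FAKi count (1) became 0 at 2-fold and stayed 1 after median scaling with Pcsk1 (0.657) in place of Chga (1.42). At 2-fold the α over β counts (7 and 8) became 4 and 5 and the δ over β counts (6 and 6) became 3 and 2. The FAKi δ over β count became 3 without the 20 genes and after median scaling.

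Among values past 1.5-fold, directions turned for Cpe in α over β cells without the 20 genes (0.988 vehicle, 0.936 FAKi), for Scg2 in δ over β cells of the vehicle library without the 20 genes (0.964), after median scaling (1.00) and in cluster 8 alone (0.898), and for Vgf in δ over β cells of the FAKi library in cluster 6 alone (0.0669). Median scaling also turned ratios that were not past it, among them Vgf in α over β cells (0.869) and Chgb (0.987), Pcsk1n (0.986) and Cpe (0.726) in δ over β cells of the vehicle library. The cause was not tested. The alternatives by single cluster, by insulin-rich cells, by cells under 1000 genes and without the top cell were chosen after seeing the data. Depth kept genes under 100 UMIs from being called, such as Vgf in the δ class (16 and 57 UMIs). Pcsk1 in α cells (22 and 42 UMIs) was also under 100 UMIs, but its ratio was not past 1.5-fold.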

Other observations

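The class deposited as T cells held these genes unevenly between libraries. Chga was 508 CPM in the 168 vehicle cells and 2849 CPM in the 28 FAKi cells, and Chgb was 639 and 1078 CPM. Droplets with over 10% of their UMIs from Ins2 numbered 3 and 12, respectively. Per Ins2 UMI, Chga was 0.802 and 0.838 times the β-cell proportion, whereas Chgb was 3.30 (3.05 to 3.57) and 1.37 times and Pcsk1 3.04 and 2.02 times. Vgf was 16.2 CPM from 16 UMIs, 9 of them in 1 cell, and 8.72 CPM from 5 UMIs in these cells.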
